A study of Mus musculus with 48 samples.

Results

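The aryl hydrocarbon receptor and the enzymes of the Cyp1 family were followed through the lungs of 48 adult mice by RNA sequencing. The members were the 7 genes of that pathway named by symbol, Ahr, Ahrr, Arnt, Cyp1a1, Cyp1a2, Cyp1b1 and Tiparp, out of 47561 genes listed in the expression table. Mice of the inbred strains C3H/HeN (C3H) and C57Bl/6 (C57B) were males (M) or females (F). They received a single injection into the abdominal cavity of saline or of 25 mg/kg aurothioglucose (ATG), in which gold blocks the antioxidant enzyme thioredoxin reductase, and then stayed in room air or in hyperoxia (above 95% oxygen) for 96 h. Each of the 16 combinations held 3 mice, and each lung gave 1 library. Groups follow the sample labels, since the text describing the series gives ATG to all mice. That text names the J substrain of C57B, the study's methods the N substrain, and the labels neither. Whole lung was sequenced, so fewer cells of a type and less RNA per cell cannot be told apart.

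AHR is a transcription factor of the bHLH-PAS family that is opened by ligands such as dioxins, polycyclic aromatic hydrocarbons and tryptophan metabolites. Without a ligand it rests in the cytosol with HSP90, and with one it moves to the nucleus, pairs with ARNT and binds DNA at xenobiotic response elements. Its classical targets encode the haem enzymes CYP1A1, CYP1A2 and CYP1B1, which oxidise many ligands. Other targets encode AHRR, a repressor that competes for ARNT, and TIPARP, an ADP-ribosyltransferase that dampens AHR. In lung, CYP1A1 is known from endothelium and airway and alveolar epithelium, whereas CYP1A2 is mainly a liver enzyme.

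The promoter windows of the target genes are shown because the core of the response element is what AHR and ARNT are known to bind. RefSeq start sites on GRCm38.p6 were available for 6 of the 7 members, and the 250 bases before each start were searched for the letters GCGTG on both strands, with matches in capitals (on the other strand they read CACGC). The longer form TNGCGTG, which includes the core, was searched in the same way. The windows are chr9:57697363-57697612 on the plus strand for Cyp1a1, chr17:79715062-79715311 on the minus strand for Cyp1b1, chr3:65528197-65528446 on the plus strand for Tiparp and chr13:74292332-74292581 on the minus strand for Ahrr.
Cyp1a1: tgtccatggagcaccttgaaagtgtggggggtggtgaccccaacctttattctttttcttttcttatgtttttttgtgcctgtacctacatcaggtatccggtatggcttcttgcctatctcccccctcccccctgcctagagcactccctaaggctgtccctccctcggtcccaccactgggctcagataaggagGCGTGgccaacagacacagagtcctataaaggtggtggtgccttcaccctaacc
Cyp1b1: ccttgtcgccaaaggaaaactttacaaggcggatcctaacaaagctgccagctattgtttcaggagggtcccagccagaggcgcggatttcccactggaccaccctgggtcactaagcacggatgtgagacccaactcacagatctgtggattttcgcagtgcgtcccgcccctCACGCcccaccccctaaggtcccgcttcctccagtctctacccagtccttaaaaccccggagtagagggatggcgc
Tiparp: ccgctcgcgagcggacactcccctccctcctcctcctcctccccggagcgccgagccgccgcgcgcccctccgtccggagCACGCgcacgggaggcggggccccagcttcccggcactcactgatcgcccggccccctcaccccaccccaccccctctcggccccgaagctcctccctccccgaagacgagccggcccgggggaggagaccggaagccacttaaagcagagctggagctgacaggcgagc
Ahrr: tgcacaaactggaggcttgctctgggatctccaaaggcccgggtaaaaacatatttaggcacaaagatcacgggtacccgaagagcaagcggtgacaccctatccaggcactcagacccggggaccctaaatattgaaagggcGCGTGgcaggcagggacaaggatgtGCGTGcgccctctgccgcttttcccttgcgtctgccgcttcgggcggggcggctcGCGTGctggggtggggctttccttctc
The match in the Cyp1a1 window lies 54 to 50 bases before the start, that of Cyp1b1 76 to 72 bases before it and that of Tiparp 170 to 166 bases before it. The Ahrr window holds 3 matches, and the one nearest to the start, 27 to 23 bases before it, also has the longer form. The Arnt window holds 1 match and the Cyp1a2 window none. Of 32536 distinct mouse promoter windows of this length, 28.4% hold the core, 8.69% hold it 2 or more times and 4.13% hold the longer form. The matches are a description of these letters only. RefSeq starts of Cyp1a1 and Cyp1a2, which lie side by side on chromosome 9 and are read in opposite directions, are 13958 bases apart.

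In the GENCODE M21 annotation of GRCm38, all 7 are protein coding genes. Ahr lies at chr12:35497974-35535038 on the minus strand, Ahrr at chr13:74211118-74292331 on the minus strand, Arnt at chr3:95434388-95497240 on the plus strand, Cyp1a1 at chr9:57687928-57703824 on the plus strand, Cyp1a2 at chr9:57676937-57683703 on the minus strand, Cyp1b1 at chr17:79701537-79715061 on the minus strand and Tiparp at chr3:65528410-65555518 on the plus strand. Cyp1a1 and Cyp1a2 are related in sequence, and 5.69% of the 30-base sequences of Cyp1a1 transcripts also occur in transcripts of another gene, all in Cyp1a2. For the other members the share is at most 1.29% except for Cyp1a2, at 7.92%. A lincRNA overlaps Ahr and a pseudogene overlaps Tiparp on the other strand, and a pseudogene lies within Arnt on the same strand, so values of these genes could include reads of the overlapping gene.

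Expression is given in FPKM, mapped fragments divided by transcript length and by the fragments mapped in the library, which permits levels to be compared between genes. Summed FPKM was 510933 to 748290 per lung, and the relative depth read from low values was 0.766 to 1.25 times the middle lung, while absolute depth is unknown. Scgb1a1, a club cell secretory gene, took 10.4% to 30.2% of the sum in room air and 1.20% to 7.17% in hyperoxia. FPKM is relative to all mapped fragments, so the values of other genes depend on this share. Lung markers were present in every group, with summed FPKM of the 5 alveolar type 2 markers between 5697 and 48867. Saline mice 1 and 3 in room air, both C3H males, stood apart from mouse 2 of the same group. For tests across genes, log2(FPKM + 1) was fitted with limma over genes that reached 1 FPKM in 3 or more mice of the comparison, and a gene was called at a Benjamini-Hochberg adjusted p below 0.05 over all genes tested. Differences on this scale understate the change of genes near 1 FPKM. This filter was passed by 5 of the 7 members, and Ahrr and Cyp1a2 did not pass it.

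Ahr, Arnt and Tiparp had the highest medians of the 7 members. Over all 48 lungs the level of Ahr had a median of 13.4 FPKM with a range of 6.99 to 20.6, and that of Arnt had a median of 16.8 FPKM with a range of 9.32 to 20.6. Tiparp lay at the same order of level, with a median of 12.8 FPKM between 6.78 and 23.9. The ranges of these 3 genes overlap almost fully. Cyp1b1 was lower, with a median of 2.58 FPKM between 0.799 and 8.72, and Cyp1a1 had a median of 1.30 FPKM and the widest span, from 0.0554 to 15.6.

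The repressor gene Ahrr was barely measured. It was listed at 0 in 21 of 48 lungs, and all other lungs lay between 0.0284 and 0.153 FPKM except C57B male mouse 24 (ATG, hyperoxia) at 1.23 FPKM and C57B female mouse 43 (saline, hyperoxia) at 1.46 FPKM. In room air 13 of 24 lungs were at 0 and in hyperoxia 8 of 24. Cyp1a2 was listed at 0 in 46 of 48 lungs, and the others were mouse 28 at 0.169 FPKM and mouse 20 at 0.0991 FPKM. Of the markers of hepatocytes, in which Cyp1a2 is known to be abundant, Apoa1, Ttr and Serpina1a were at 0 in 32, 37 and 39 lungs, Cyp2e1 was at 0 in 4 lungs with a median of 3.88 FPKM in room air, and Alb was at 0 in none.

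Hyperoxia moved 4 of the 5 tested members in saline mice, 2 in each direction. Cyp1a1 and Ahr fell, while Tiparp and Arnt rose. Of all 16321 genes tested in this comparison 60.1% were called, so a call here is common and the 4 members are read against that share. Within C3H the same 4 members were called in the same directions, where 37.8% of genes were called, and within C57B likewise, where 55.5% were called. The median difference of the 5 members was 0.24 on the log2 scale against 0.01 for all genes tested. That median is the value of Cyp1b1, the member not called. It lies between 2 falling and 2 rising members, so it does not describe a common shift.

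Cyp1a1, the inducible monooxygenase of the family, fell furthest. In saline C3H mice it ranged from 1.65 to 2.90 FPKM in room air with a median of 2.32, and from 0.241 to 0.922 FPKM in hyperoxia with a median of 0.538. All 6 hyperoxic C3H lungs lay below all 6 in room air. In saline C57B mice it ranged from 1.23 to 11.7 FPKM in room air with a median of 3.77, and from 0.119 to 1.36 FPKM in hyperoxia with a median of 0.916. There 5 of 6 hyperoxic lungs lay below all 6 in room air, and the remaining one overlapped only the lowest female. Mean levels were 4.04-fold lower in hyperoxia in C3H (2.29 ± 0.431 against 0.567 ± 0.222 FPKM, SD, n = 6 each, exact permutation p = 0.00216, two-sided, the smallest these groups allow) and 6.66-fold lower in C57B (5.33 ± 4.22 against 0.800 ± 0.460 FPKM, exact permutation p = 0.00433). On the log2(FPKM + 1) scale the difference over both strains was −1.33 ± 0.14 (SE, limma, adjusted p = 1.54e-07), and with a pseudocount of 0.1 it was −2.16. Of all genes tested, 4.94% differed by at least as much in either direction.

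**Figure D1:**
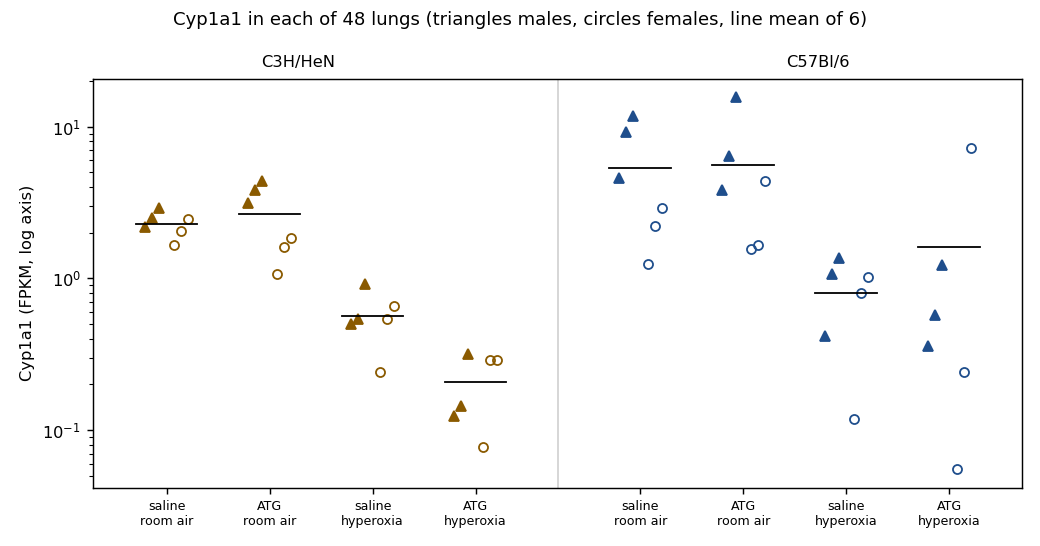
Cyp1a1 level in FPKM on a log axis for each of the 48 lungs, by strain, injection and air, with filled triangles for males, open circles for females and a line at the arithmetic mean of the 6 lungs. Within each strain and injection hyperoxic lungs lie below room air lungs except mouse 48 at 7.20 FPKM and 1 saline C57B male at 1.36 FPKM, and in both C57B room air groups the 3 males lie high, between 3.82 and 15.6 FPKM.

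Ahr fell in the same lungs. In saline C3H mice its level was 13.1 to 20.2 FPKM in room air with a median of 14.8, and 10.2 to 12.7 FPKM in hyperoxia with a median of 11.6. In saline C57B mice it was 13.0 to 17.7 FPKM in room air with a median of 16.1, and 7.53 to 12.5 FPKM in hyperoxia with a median of 10.2. The 2 air groups did not overlap in either strain. The level in hyperoxia was 0.724 of that in room air in C3H and 0.628 in C57B (exact permutation p = 0.00216 for each, n = 6 against 6), and limma gave −0.52 ± 0.08 on the log2 scale over both strains (adjusted p = 1.41e-05). A difference at least as large, in either direction, was found in 33.75% of all genes tested.

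Tiparp, the target gene for the ADP-ribosyltransferase, went the other way from Cyp1a1. In saline C3H mice it was 6.78 to 11.9 FPKM in room air with a median of 9.06, and 11.4 to 18.0 FPKM in hyperoxia with a median of 16.2. In saline C57B mice it was 8.56 to 12.4 FPKM in room air with a median of 11.1, and 11.1 to 23.9 FPKM in hyperoxia with a median of 22.2. In each strain 5 of 6 hyperoxic lungs lay above all 6 in room air, the exceptions being mouse 7 in C3H and mouse 20 in C57B. Mean levels were 1.74-fold higher in hyperoxia in C3H (exact permutation p = 0.00433) and 1.82-fold higher in C57B (exact permutation p = 0.00866). The log2 difference over both strains was 0.76 ± 0.11 (SE, limma, adjusted p = 3.64e-06), and 18.6% of all genes tested differed by at least as much. The 2 target genes of the receptor that passed the test thus had opposite directions in the same lungs.

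**Figure D2:**
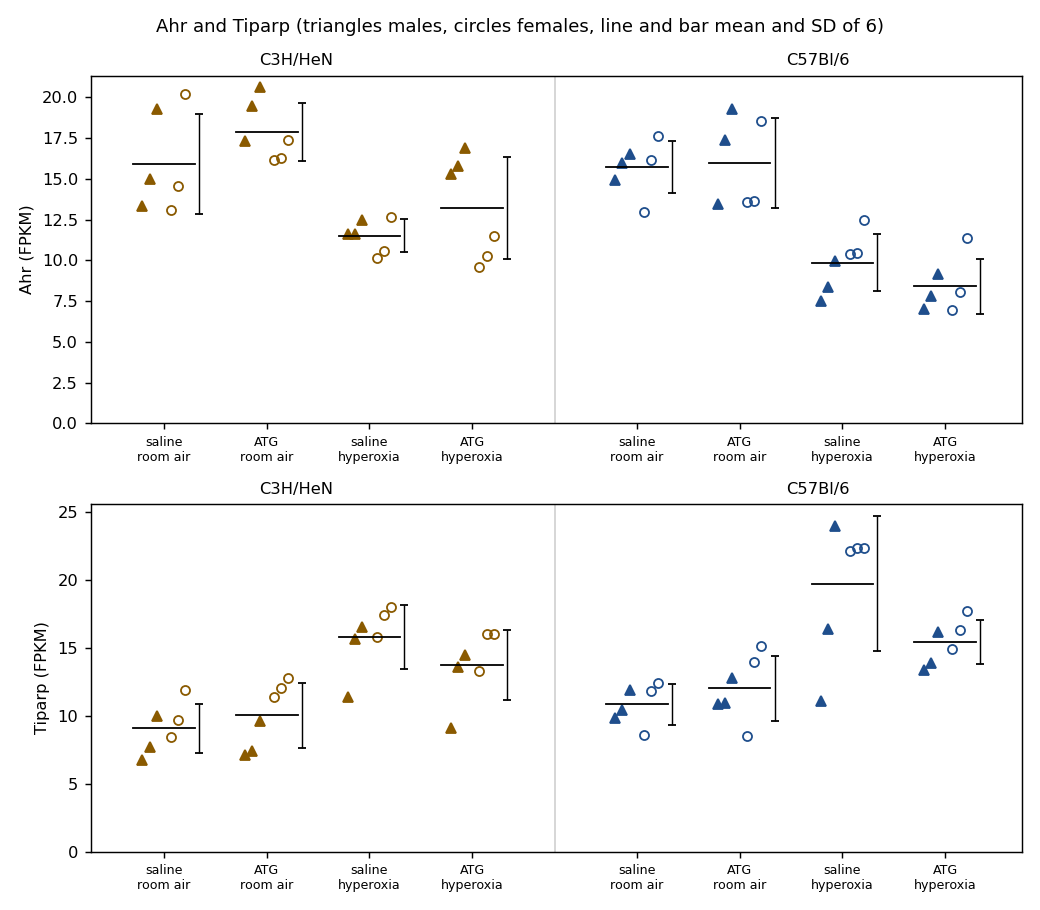
Ahr (upper panel) and Tiparp (lower panel) in FPKM for each of the 48 lungs by strain, injection and air, with filled triangles for males, open circles for females, and a line and bar for the mean and SD of 6 lungs. Ahr is lower and Tiparp higher in hyperoxia in both strains, and C57B saline mice in hyperoxia reach 23.9 FPKM of Tiparp.

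Arnt, which encodes the obligate partner of AHR and also of the hypoxia-inducible factors, rose slightly. In saline C3H mice it was 9.32 to 16.8 FPKM in room air with a median of 15.2, and 16.7 to 19.3 FPKM in hyperoxia with a median of 17.2. In saline C57B mice it was 12.6 to 17.2 FPKM in room air with a median of 15.3, and 16.8 to 20.6 FPKM in hyperoxia with a median of 18.8. The groups overlapped in both strains. The ratio of means was 1.26 in C3H (exact permutation p = 0.0108) and 1.27 in C57B (exact permutation p = 0.00433), and the log2 difference was 0.34 ± 0.07 (limma, adjusted p = 0.000481). Of all genes tested, 52.93% differed by at least as much as Arnt did over both strains. In C3H alone the difference was 0.34 ± 0.10 (limma, adjusted p = 0.0121) and was not called after scaling by the median ratio (0.19, adjusted p = 0.0709), after quantile normalization (0.17, adjusted p = 0.125) or without mice 1 and 3 (0.14, adjusted p = 0.280).

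Cyp1b1, the family member known from mesenchymal cells and for oestrogen and retinoid oxidation, did not pass the test in saline mice. In C3H it was 0.799 to 2.96 FPKM in room air and 1.74 to 5.14 FPKM in hyperoxia, and in C57B it was 1.54 to 3.74 and 1.60 to 7.52 FPKM. These ranges overlap widely. The log2 difference was 0.24 ± 0.18 (SE, limma, adjusted p = 0.269).

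The direct test of whether the strains differed in their change with hyperoxia called none of the 5 members, against 11.5% of all genes. No member had an unadjusted p below 0.05 (limma), while 4571 of all 16321 genes did. For Cyp1a1 the fall in C57B, −1.58 ± 0.20, exceeded that in C3H, −1.07 ± 0.20, by 0.51 ± 0.29 (adjusted p = 0.255). For Ahr the falls were −0.63 ± 0.12 in C57B and −0.42 ± 0.12 in C3H (difference 0.21 ± 0.16, adjusted p = 0.417). The median of all genes in this test was 0.15 and moved to 0.00 after scaling by the median ratio. The same test between sexes called none of the 5 members, against 0.0368% of all genes. An unadjusted p below 0.05 was found for 2964 of all 16321 genes and for 1 member. That was Cyp1a1, whose change in males minus that in females was −0.68 ± 0.29 on the log2 scale (adjusted p = 0.230, limma).

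The ATG mice gave a second set of lungs in both airs. Their comparison of airs was added after the values were seen. All 5 tested members were called, against 61.8% of all 16206 genes, with the same directions for the 4 members called in saline mice and with Cyp1b1 added. Cyp1a1 fell, with −1.48 ± 0.27 (limma, adjusted p = 7.14e-05), −1.72 without mouse 48 and −2.79 with a pseudocount of 0.1. Ahr fell, with −0.64 ± 0.08 (adjusted p = 5.06e-07). Tiparp rose by 0.39 ± 0.09 (adjusted p = 0.000769) and Cyp1b1, averaged over strains, by 0.70 ± 0.13 (adjusted p = 7.85e-05). In C3H the means of Cyp1b1 were 6.24 FPKM in hyperoxia and 2.16 FPKM in room air (exact permutation p = 0.00216). In C57B they were 3.45 and 2.87 FPKM (exact permutation p = 0.368). The difference between strains in this change was not tested. Arnt rose by 0.19 ± 0.05 (adjusted p = 0.00401), which was not called after scaling by the median ratio (0.09, adjusted p = 0.112) or quantile normalization (0.05, adjusted p = 0.396).

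**Figure D3:**
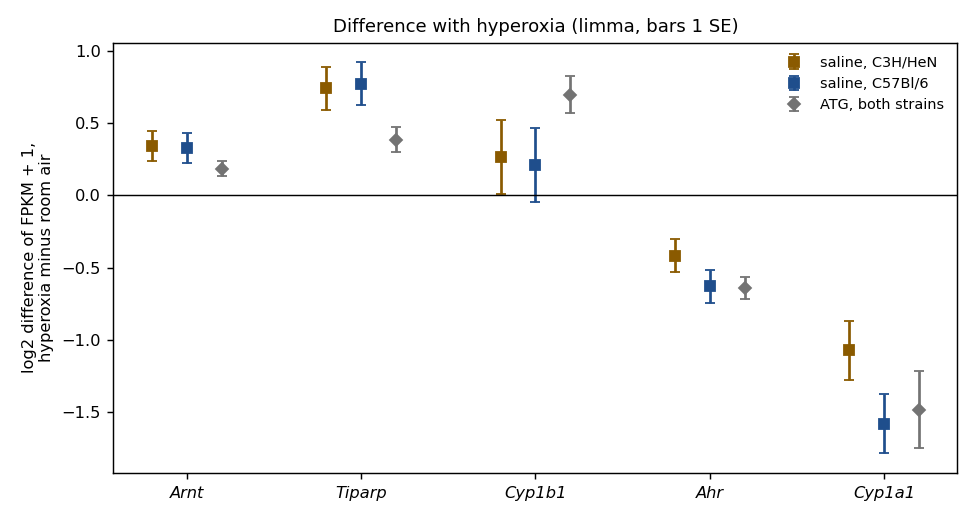
Difference between hyperoxia and room air on the log2(FPKM + 1) scale for the 5 members tested, in saline C3H/HeN mice, saline C57Bl/6 mice and ATG mice of both strains, with bars of 1 SE from limma. Arnt and Tiparp lie above 0 and Ahr and Cyp1a1 below 0 in all 3 sets. Cyp1b1 lies furthest from 0 in ATG mice, at 0.70 as an average over both strains.

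Cell type markers moved with air in the same lungs. The summed FPKM of the 4 club cell markers had a median of 98951 in room air and 33964 in hyperoxia in C3H (ranges 58623 to 231078 and 27574 to 44044), and of 126229 and 13823 in C57B (97954 to 167168 and 7197 to 32243). For the 5 alveolar type 2 markers the medians were 28741 and 12130 in C3H (24053 to 44985 and 5697 to 21494) and 38556 and 9931 in C57B (32754 to 48867 and 6471 to 15088). The 4 alveolar type 1 markers had medians of 3932 and 2818 in C3H and of 2763 and 2209 in C57B. The 6 endothelial markers, which include Pecam1 and Cdh5, had medians of 1509 and 1362 in C3H and of 1125 and 827 in C57B. Single markers did not all follow these sums. Cdh5 had a median of 194 FPKM in room air and 221 FPKM in hyperoxia over all lungs. Sftpb, an alveolar type 2 marker, had 2661 and 3077 FPKM. In saline mice limma called 3 endothelial markers lower and 1 higher with hyperoxia, and 4 alveolar type 2 markers lower and 1 higher. No epithelial or endothelial marker was at 0 in any lung.

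Among other cells, the 4 of 5 alveolar macrophage markers found in the table had medians of 199 in room air and 367 in hyperoxia in C3H saline mice, of 297 and 110 in C3H ATG mice, of 442 and 1395 in C57B saline mice and of 623 and 1140 in C57B ATG mice. In limma 3 of these 4 markers were higher and 1 lower with hyperoxia in saline mice. The 5 neutrophil markers ranged from 59.9 to 3620 in room air and from 157 to 6265 in hyperoxia, with medians of 187 and 205 in C3H saline mice and of 460 and 3054 in C57B saline mice. All 5 were called higher with hyperoxia in saline mice, with a median log2 difference of 1.44, and 4 of 5 in ATG mice, with 0.86. In ATG mice the strains differed in direction, with median neutrophil sums of 143 and 753 in C3H and of 923 and 385 in C57B. Fibroblast sums of 5 markers had medians of 205 and 220 in C3H and of 195 and 271 in C57B, and those of 6 smooth muscle and pericyte markers 164 and 214 in C3H and 147 and 239 in C57B. Over all lungs Pdgfra had medians of 33.6 and 77.1 FPKM, and Dcn of 68.8 and 55.6 FPKM. With hyperoxia in saline mice limma called 1 fibroblast marker higher and none lower, with a median log2 difference of −0.23. It called 2 smooth muscle and pericyte markers higher and 1 lower, with a median of 0.18. Heart muscle sums of 5 markers had medians of 159 and 43.3 in C3H and of 166 and 17.4 in C57B, with Nppa at 0 in 16 lungs. Hepatocyte sums of 5 markers stayed at or below 23.3. The part of these cell markers in the changes of the members was not tested.

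At baseline, that is in saline mice in room air, none of the 5 members was called between strains, where 11.8% of 15546 genes were called. None was called between sexes either, where 0.669% of genes were called, nor for strain by sex, where 0% were called and 2538 genes had an unadjusted p below 0.05 (limma). At an unadjusted p below 0.05 there was 1 member between strains, there were 2 between sexes and there was 1 for strain by sex. Cyp1a1 was among these members each time. Of all 15546 genes, 4090 had such a p between strains, 3617 between sexes and 2538 for strain by sex.

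The spread of Cyp1a1 at baseline was widest in the C57B males. Its levels were 4.62, 11.7 and 9.27 FPKM in C57BM and 1.23, 2.92 and 2.20 FPKM in C57BF. In C3HM they were 2.90, 2.50 and 2.18 FPKM and in C3HF 2.05, 2.46 and 1.65 FPKM. The 3 C57BM lungs lay above the other 9, which overlapped among groups. Males had a mean of 5.53 ± 4.01 FPKM and females of 2.09 ± 0.595 FPKM (SD, n = 6 each, exact permutation p = 0.0238). In limma the male minus female difference was 0.89 ± 0.21 (adjusted p = 0.0750), the C3H minus C57B difference was −0.68 ± 0.21 (adjusted p = 0.0539) and the interaction was −1.36 ± 0.41 (adjusted p = 0.206). The sex difference was called without mouse 2 (adjusted p = 0.0203) or 13 (adjusted p = 0.0300), and the strain difference without mouse 2 (adjusted p = 0.0480), 13 (adjusted p = 0.0102) or 37 (adjusted p = 0.0351). Calls without mouse 2 were common, at 3640 of 15466 genes for sex and 4021 for strain. With every mouse kept they were 104 and 1832 of 15546 genes. Without mouse 13, 50 of 15435 genes were called for sex. Without mice 1 and 3 the sex difference was 0.89 (adjusted p = 0.251).

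ATG mice in room air, which took no part in that comparison, gave the sexes a second time, in a test added after the values were seen. The limma difference came from ATG mice only. Its fit held all mice in room air, so the gene filter and the variance also drew on the saline mice. The levels of Cyp1a1 were 6.38, 15.6 and 3.82 FPKM in C57BM and 1.57, 1.67 and 4.36 FPKM in C57BF. In C3HM they were 4.40, 3.82 and 3.16 FPKM and in C3HF 1.06, 1.84 and 1.61 FPKM. The C3H sexes did not overlap, and among C57B mice 1 female lay within the male range. Cyp1a1 was the only one of the 5 members called, where 1.77% of all genes were called, with a male minus female difference of 1.14 ± 0.26 (limma, adjusted p = 0.0256) and means of 6.19 ± 4.72 and 2.02 ± 1.18 FPKM (SD, n = 6 each, exact permutation p = 0.00866). This call was lost without the filter on low values (adjusted p = 0.0513), in the fit of all 48 mice (adjusted p = 0.0544) and without mouse 4, 5, 17, 28, 30, 40 or 41 in turn, where adjusted p was 0.0523 to 0.0725. In hyperoxia the sexes overlapped, with exact permutation p = 0.273 in saline mice and p = 0.918 in ATG mice.

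Markers of 1 other cell type moved with sex in the ATG mice in room air. All 5 neutrophil markers were called higher in males as an average over strains, S100a8 by 1.65 ± 0.34 (limma, adjusted p = 0.0138). Their sum was 59.9 to 3620 FPKM in males and 75.6 to 275 FPKM in females. With both sexes together it was 59.9 to 261 FPKM in C3H and 222 to 3620 FPKM in C57B, so the highest sums were in C57B. In saline mice in room air the sum was 135 to 774 FPKM in males and 180 to 351 FPKM in females. Endothelial sums overlapped between the sexes, at 974 to 1610 and 862 to 1453 FPKM in ATG mice. The part of neutrophils in the Cyp1a1 values was not tested.

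The values of Arnt in room air lay lower in males by unadjusted exact tests, and limma called the difference only under the 2 settings named with its values. Its level was 9.32 to 15.9 FPKM in saline males and 14.7 to 17.2 FPKM in saline females, with 4 of 6 males below all females (exact permutation p = 0.0303, and 0.0563 after scaling by the median ratio). In ATG mice it was 11.9 to 17.5 FPKM in males and 15.1 to 17.7 FPKM in females, with 5 of 6 males below all females (exact permutation p = 0.0433). In limma the difference was −0.30 ± 0.12 at baseline (adjusted p = 0.186) and −0.19 ± 0.10 in ATG mice (adjusted p = 0.463). It was called at baseline in the fit of all 48 mice (adjusted p = 0.0219) and without mouse 2 (−0.40, adjusted p = 0.0157), and without mice 1 and 3 it was −0.10. Of all genes, 1915 of 16994 were called for sex in the fit of all 48 mice and 3640 of 15466 without mouse 2. The 112 exact tests of single values are given unadjusted, and 25 of them gave p below 0.05.

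ATG in room air called none of the 5 members, where 0.0185% of all 16228 genes were called, and none when its effect was compared between strains, where 0% were called and 743 genes had an unadjusted p below 0.05. No member had an unadjusted p below 0.05 in either comparison (limma), while 1077 of all genes did for ATG in room air. The smallest adjusted p of a member was 0.778 and 0.959 in the 2 comparisons.

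ATG during hyperoxia went with a higher level of Cyp1b1 in C3H mice. Averaged over strains, none of the 5 members was called, where 5.47% of 15860 genes were called. An unadjusted p below 0.05 was found for 3472 of all genes and for 2 members. These were Cyp1b1, with an ATG minus saline difference of 0.52 ± 0.17 on the log2 scale (limma, adjusted p = 0.0848), and Tiparp, with −0.25 ± 0.10 (adjusted p = 0.147). Cyp1b1 was called without mouse 33 (adjusted p = 0.0342) or 43 (adjusted p = 0.0457), and Tiparp without mouse 20 (adjusted p = 0.0410). The effect of ATG did not pass the test of a difference between airs for any member, where 2.77% of genes were called. At an unadjusted p below 0.05 there were again 2, Cyp1b1 with 0.46 ± 0.23 (adjusted p = 0.264) and Tiparp with −0.37 ± 0.14 (adjusted p = 0.131). Of all 16994 genes, 3190 had such a p.

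Within C3H mice in hyperoxia, a comparison added after the values were seen, Cyp1b1 was called, where 2.65% of all genes were called. Its level with ATG was 6.39, 5.11 and 6.40 FPKM in C3HM and 8.72, 4.44 and 6.35 FPKM in C3HF. With saline it was 1.93, 2.66 and 2.34 FPKM in C3HM and 1.74, 2.05 and 5.14 FPKM in C3HF. Of the 6 saline lungs 5 lay below every ATG lung, and mouse 33 lay among the ATG lungs. The means were 6.24 ± 1.46 and 2.64 ± 1.26 FPKM, a ratio of 2.36 (SD, n = 6 each, exact permutation p = 0.00649), and limma gave 1.02 ± 0.25 (adjusted p = 0.0283). The call was lost without the filter on low values (adjusted p = 0.0519) and without mouse 7, 8, 10, 12, 31, 32, 34 or 36 in turn, where adjusted p was 0.0544 to 0.0869. Against C3H mice given ATG in room air, at 1.33 to 3.73 FPKM, the hyperoxic ATG lungs did not overlap (exact permutation p = 0.00216).

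In C57B mice in hyperoxia no member was called for ATG, where 0.864% of all genes were called. An unadjusted p below 0.05 was found for 3079 of 15860 genes and for 1 member, Tiparp. Cyp1b1 was 2.38 to 5.36 FPKM with ATG and 1.60 to 7.52 FPKM with saline, and the difference was 0.01 ± 0.25 (limma, adjusted p = 0.988), a value whose sign changed after scaling. The difference between the strains in the effect of ATG on Cyp1b1 was 1.01 ± 0.35 (adjusted p = 0.213). None of the 5 members was called in that test, where 0.416% of all genes were called. An unadjusted p below 0.05 was found there for 2110 of 15860 genes and for 2 members, Ahr and Cyp1b1. Among hyperoxic C3H mice the summed fibroblast markers were 200 to 272 with ATG and 193 to 261 with saline, and the smooth muscle and pericyte markers 156 to 338 and 172 to 221. Alveolar macrophage markers were 86.4 to 430 with ATG and 248 to 651 with saline in these mice, endothelial markers 964 to 1666 and 1330 to 1780, and neutrophil markers 157 to 2882 and 176 to 6265. The part of these cells in the Cyp1b1 values was not tested.

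**Figure D4:**
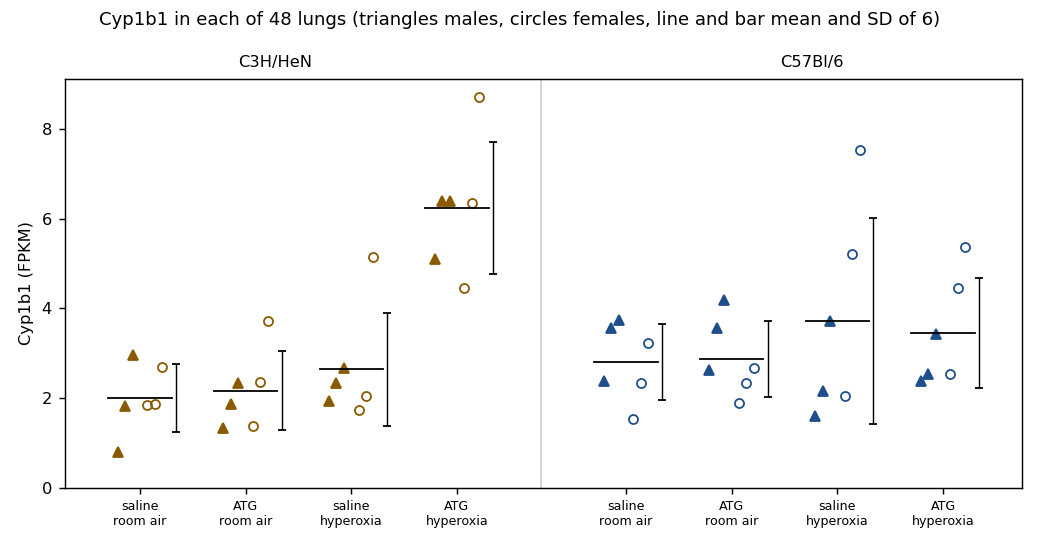
Cyp1b1 in FPKM for each of the 48 lungs by strain, injection and air, with filled triangles for males, open circles for females, and a line and bar for the mean and SD of 6 lungs. The 6 C3H lungs with ATG and hyperoxia lie between 4.44 and 8.72 FPKM, above all C3H lungs in room air and above the hyperoxic saline lungs of C3H except mouse 33 at 5.14 FPKM.

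In hyperoxia Ahr in C3H given ATG was 15.3, 16.9 and 15.8 FPKM in males and 10.3, 9.62 and 11.5 FPKM in females, so that the sexes did not overlap. In C57B given ATG it was 6.99 to 11.4 FPKM, with means of 8.01 FPKM in males and 8.81 FPKM in females. Over both strains the exact permutation test of sex for Ahr in these mice gave p = 0.242. The strain means of 13.2 ± 3.13 and 8.41 ± 1.67 FPKM differed (SD, n = 6 each, exact permutation p = 0.00866). The effect of ATG on Ahr differed between strains by 0.37 ± 0.15 in limma (adjusted p = 0.294). Cyp1a1 in C3H was 0.0780 to 0.319 FPKM with ATG and 0.241 to 0.922 FPKM with saline, with 3 of 6 ATG lungs below all saline lungs (exact permutation p = 0.00866). All these lungs lay below 1 FPKM, and limma did not call the difference (−0.37 ± 0.35, adjusted p = 0.658). Tiparp in C57B was 13.4 to 17.7 FPKM with ATG, within the range of 11.1 to 23.9 FPKM with saline (exact permutation p = 0.0671).

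Other genes of the pathway were taken from 5 lists, whose counts in saline mice stand against the 60.1% of all genes called there. In the list of the AHR complex and coactivators, 8 of 9 genes were tested in saline mice, where 4 were called with hyperoxia, 3 of them higher, with a median log2 difference of 0.14 against 0.01 for all genes. Hsp90aa1 and Ptges3, chaperones that hold the receptor, rose by 0.45 ± 0.14 (adjusted p = 0.0105) and 0.21 ± 0.07 (adjusted p = 0.00979), and the kinase gene Src by 0.36 ± 0.09 (adjusted p = 0.00149). After quantile normalization neither chaperone was called, and Ptges3 was not called after scaling by the median ratio.

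Of 12 other bHLH-PAS factors 5 were tested, of which 3 rose and 1 fell in hyperoxia, with a median of 0.46. Hif1a, the oxygen-regulated partner of ARNT, rose by 2.06 ± 0.14 (adjusted p = 1.97e-10), and the circadian genes Clock and Arntl by 0.61 ± 0.09 (adjusted p = 1.14e-05) and 0.46 ± 0.14 (adjusted p = 0.00847). Epas1, which encodes HIF-2 alpha and is abundant in lung endothelium, fell, with −0.68 ± 0.09 (adjusted p = 1.35e-06). For 4 of the 5 tested genes of this list the change differed between strains, in a test that called 11.5% of all genes. For 3 the value was higher in C3H (Arntl, Npas2 and Epas1, the last not called after scaling by the median ratio). For 1, Hif1a, it was −1.36 ± 0.28 for C3H minus C57B (adjusted p = 0.00445).

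Of 11 other genes known to be driven by AHR 9 were tested, of which 5 rose and 1 fell, with a median of 0.30. The amino acid transporter gene Slc7a5 rose by 2.46 ± 0.09 (adjusted p = 7.13e-14), the quinone reductase gene Nqo1 by 1.61 ± 0.12 (adjusted p = 1.36e-09), the DNA polymerase gene Polk by 1.42 ± 0.14 (adjusted p = 3.69e-08) and the glutathione transferase gene Gsta1 by 1.05 ± 0.17 (adjusted p = 1.70e-05). Named after their values were seen, Nfe2l2 rose by 0.27 ± 0.08 (not called after quantile normalization) and Cyp2s1 fell, with −0.47 ± 0.15 (adjusted p = 0.00930). Several of these genes also answer to NFE2L2, the oxidant-sensing factor.

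The next list held enzymes that turn tryptophan into kynurenines, some of which are known AHR ligands. Of 10 in the list 7 were tested, with 1 higher and 3 lower and a median of −0.05. Ido1, Il4i1 and Kmo fell, with −0.59 ± 0.08 (adjusted p = 4.87e-06), −0.65 ± 0.15 (adjusted p = 0.000872) and −0.33 ± 0.11 (adjusted p = 0.0163), and Afmid rose by 0.43 ± 0.16 (adjusted p = 0.0247). Kmo was not called after quantile normalization. All 3 that fell had a higher change in C3H than in C57B (Il4i1 by 1.64 ± 0.30, adjusted p = 0.00200), although Ido1 and Kmo lost that call after quantile normalization. That test covered 7 genes of the list and called 11.5% of all genes.

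Of the 6 electron donors and haem enzymes that serve P450s, all were tested and 1 rose, with a median of −0.04. It was Hmox1, the haem oxygenase that breaks haem down, with 2.14 ± 0.17 (adjusted p = 2.04e-09), and the difference of its rise, C3H minus C57B, was −1.42 ± 0.34 (adjusted p = 0.0114). In ATG mice hyperoxia lowered 3 of this list: Por, the electron donor of all microsomal P450s, with −0.39 ± 0.11 (adjusted p = 0.00462), Alas1, the first enzyme of haem synthesis, with −0.44 ± 0.10 (adjusted p = 0.000439), and Cyb5r3, with −0.12 ± 0.05 (adjusted p = 0.0336). Hmox1 again rose, by 1.99 ± 0.14 (adjusted p = 1.06e-10). In the other lists, in ATG mice, where 61.8% of all genes were called, hyperoxia raised 2 and lowered none of 8 complex genes, raised 3 and lowered 1 of 6 bHLH-PAS genes, raised 6 and lowered none of 9 AHR-driven genes, and raised 2 and lowered none of 7 kynurenine genes. There Hif1a rose by 1.98 ± 0.10 (adjusted p = 1.04e-12) and Epas1 fell, with −1.23 ± 0.08 (adjusted p = 1.25e-10).

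At baseline, where 11.8% of all genes were called, the strains differed in 2 bHLH-PAS genes, 3 kynurenine genes and 1 electron donor. In the same comparison all 5 neutrophil markers were lower in C3H (median log2 difference −1.04), as were 3 of 5 alveolar type 2 markers (Lamp3, Sftpa1 and Sftpb), and 3 of 4 alveolar type 1 markers (Ager, Aqp5 and Pdpn) were higher, and their part in the list genes was not tested. Lower in C3H were Arntl, with −1.71 ± 0.24 (adjusted p = 0.000627), Npas2, with −1.53 ± 0.19 (adjusted p = 0.000270), Il4i1, with −1.28 ± 0.15 (adjusted p = 0.000200), Kmo, with −1.02 ± 0.17 (adjusted p = 0.00170), and Ido1, with −0.50 ± 0.14 (adjusted p = 0.0429). Ido1 was not called after either scaling. Cyb5r3 was higher in C3H by 0.43 ± 0.09 (adjusted p = 0.00828). Between the sexes at baseline, where 0.669% of all genes were called, 1 gene of the 5 lists was called. It was Alas1, which was lower in males, with −1.01 ± 0.17 (adjusted p = 0.0261). In ATG mice in room air, where 1.77% of all genes were called between the sexes, Alas1 was again lower in males (−1.01 ± 0.17, adjusted p = 0.00243). Arntl and Npas2 were higher in males there by 2.18 ± 0.20 (adjusted p = 1.54e-06) and 1.73 ± 0.20 (adjusted p = 2.56e-05). ATG in hyperoxia raised Ptges3 by 0.24 ± 0.06 (adjusted p = 0.0203) and Il4i1 by 0.62 ± 0.16 (adjusted p = 0.0335) and lowered Epas1, with −0.31 ± 0.08 (adjusted p = 0.0263), of which Ptges3 was not called after scaling by the median ratio and Il4i1 after quantile normalization. With ATG in hyperoxia, where 5.47% of all genes were called, 3 of 6 endothelial markers (Pecam1, Tek and Tie1) were also lower, with a median of −0.27 over the 6, and 3 of 4 alveolar macrophage markers, with −0.72, and their part in the list genes was not tested. No gene of the 5 lists was called by limma for ATG in room air.

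Genes whose pattern was most like that of each member were found by Pearson correlation of log2(FPKM + 1) means over the 16 groups, among 16994 genes. For Ahr they were Atp1b3, Elk3 and Pitpnc1 (r = 0.964, 0.958 and 0.954), and for Arnt Atp13a3, Klf5 and the pseudogene Gm2541 (r = 0.977, 0.970 and 0.970). Almost all of the sequence of Gm2541 (99.9%) occurs in other genes. For Cyp1a1 they were Fam210b, Unc119 and Pdia6 (r = 0.918, 0.909 and 0.903), for Cyp1b1 Gm11110, Gm16685 and the leukotriene receptor gene Ltb4r1 (r = 0.920, 0.916 and 0.911), and for Tiparp the folate carrier gene Slc19a1, the stress gene Ddit4 and Zbtb7c (r = 0.954, 0.949 and 0.944). Over the 48 single lungs r with the same member was lower for each of these genes, from 0.477 for Gm11110 to 0.905 for Elk3. The group means share libraries and the strong difference between airs, so these values are a description.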

How the data were processed

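RNA of 48 mouse lungs was sequenced by the authors from polyA-selected libraries. They mapped the reads to mm10 with GSNAP (named in the submitters' processing notes), derived values with Cufflinks and deposited 1 table of FPKM. How reads with several matches were treated, and with which annotation release, is not given in the sources used here. No column lacked a sample. Akap5 was left out because 7 cells held failed estimates.

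Groups came from the sample labels. The log2 of FPKM + 1 went into limma 3.58.1 under R 4.3.3 (group means, eBayes with trend, Benjamini-Hochberg adjustment, threshold 0.05) for genes reaching 1 FPKM in 3 or more mice. The values are not counts, so no test for counts was used. Single values were compared by two-sided exact permutation tests of FPKM, 6 mice against 6, with 924 regroupings. Where the labels do not say that mice came from separate litters, p-values measure only the spread between these mice. The absolute depth is unknown, so no counting error is given.

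The members and lists were chosen with earlier results of these data known. Genes named were the 7 members, at most 4 genes per list and comparison with the smallest p among those called, and the 3 genes with the highest correlation to each member. A listed item is not reported here. Each fit was repeated with quantile normalization, median ratio scaling, a pseudocount of 0.1, no filter or a filter at 0.1 FPKM, eBayes without trend, a fit of all 48 mice and leaving out each mouse, and, chosen after seeing the data, leaving out mice 1 and 3. Tests of ATG within and between strains in hyperoxia, of hyperoxia within strains and in ATG mice, the limma test of sex in ATG mice and all exact tests of sex were also added after the values were seen. The fits were tested on simulated data.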

Additional observations from a re-analysis of the deposited data

Results flagged for a closer look

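In groups of 6 mice of the same strain, injection and air, 9 of 50 groups with values held a mouse whose distance from the nearest other mouse exceeded 0.625 of the group range (Dixon's ratio). Chance flags about 1 in 20 groups of normally distributed values, or 2.5 of 50. A group with a single value above 0 is always flagged, as with Ahrr in mouse 27 and Cyp1a2 in mice 28 and 20. The 9 against 2.5 therefore does not measure an excess of outliers. Cyp1a1 was high in C57B mouse 48 (female, ATG, hyperoxia) at 7.20 FPKM and in C57B mouse 17 (male, ATG, room air) at 15.6 FPKM. Cyp1b1 was high in C3H mouse 33 (female, saline, hyperoxia) at 5.14 FPKM. Tiparp was low in C3H mouse 7 (male, saline, hyperoxia) at 11.4 FPKM. Ahrr was high in C57B mouse 43 (female, saline, hyperoxia) at 1.46 FPKM, in C57B mouse 24 (male, ATG, hyperoxia) at 1.23 FPKM and in C3H mouse 27 (female, saline, room air) at 0.0691 FPKM. Cyp1a2 was the only value above 0 of its group in C3H mouse 28 (female, ATG, room air) at 0.169 FPKM and in C57B mouse 20 (male, saline, hyperoxia) at 0.0991 FPKM.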

How the results depend on the processing

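The 4 members called for hyperoxia in saline mice, the same number within C57B and the 5 in ATG mice stayed at these counts without any single mouse, and the 4 within C3H did too. Leaving out each mouse in turn gave 0 to 1 called members for strain at baseline, 0 to 2 for sex at baseline, 0 to 1 for sex in ATG mice in room air, 0 to 1 for ATG in hyperoxia and 0 to 1 for ATG in C3H in hyperoxia. The fit of all 48 mice called 1 member (Arnt) for sex at baseline and 0 for sex in ATG mice. Without the filter on low values, 0 members were called for sex in ATG mice and 0 for ATG in C3H in hyperoxia, where more genes enter the adjustment. The difference of Cyp1b1 with ATG in C57B in hyperoxia, 0.01, became −0.085 after quantile normalization, −0.0482 after scaling by the median ratio, and −0.20 to 0.17 without single mice. Counts of called genes moved by over 1.5 times without mouse 2 for strain at baseline (1832 to 4021), sex at baseline (104 to 3640), strain by sex (0 to 2741), hyperoxia by strain (1880 to 3242), hyperoxia by sex (6 to 1270), ATG in room air (3 to 32), ATG by strain in room air (0 to 17) and ATG by air (470 to 1093). In the fit of all 48 mice the first 5 became 2982, 1915, 748, 2994 and 306. Without single mice the count was 443 to 1096 for ATG in hyperoxia, 37 to 302 for ATG by strain in hyperoxia, 166 to 861 for ATG in C3H, 3 to 545 for ATG in C57B and 148 to 384 for sex in ATG mice, and all 48 mice gave 234 for ATG by strain and 457 for ATG in C57B. Without the filter it was 40 for sex at baseline, 313 for ATG by air and 57 for ATG in C57B, which became 66 after median ratio scaling and 26 without trend. A filter at 0.1 FPKM gave 60 for sex at baseline, and leaving out mice 1 and 3 gave 30 there and 435 for sex in ATG mice. Strain by sex gave 0 to 5 genes under other settings, hyperoxia by sex 2 after median ratio scaling, 1051 without mouse 19 and 16 without mouse 31, and ATG in room air 5 and ATG by strain in room air 2 without the filter. The causes were not tested. No paired analysis was possible because each mouse has its own number. Values of Ahrr and Cyp1a2 are too low to compare groups.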
